A study of Homo sapiens with 18 samples.

Results

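CRISPR interference with the guide sgRNA-PURPL#1 (guide 1) against the long noncoding RNA PURPL was compared with a control guide, sgCtrl, across all genes of BJ cells, an established line of human skin fibroblasts. The comparison takes 6 of the 18 libraries of the series, chosen by their titles, 3 with guide 1 and 3 with sgCtrl. A second guide, sgRNA-PURPL#2 (guide 2), has 3 libraries of its own and was used where the effect of guide 1 was set against it. Both guides share the same 3 sgCtrl libraries. All 9 libraries are BJ cells, and the labels name no passage and no added agent. The labels name neither the repressor protein nor the guide sequences, and do not say whether the 3 libraries of a group came from separate cultures or from separate lines. The p-values therefore measure the spread between these libraries, which may be technical. The series concerns the role of PURPL in senescence of fibroblasts.

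PURPL is transcribed from chromosome 5 and is known as a target of the transcription factor p53 that in turn lowers p53 levels. CRISPR interference guides a catalytically dead Cas9 with a repressor domain to the start of a gene, where it lowers transcription without cutting DNA. Fibroblasts make and remodel the matrix of the dermis, and they leave the cell cycle, change their secretion and alter their shape when they become senescent.

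The RefSeq promoter of PURPL is shown first because it is the start that a guide of this kind is aimed at. It lies at chr5:27472042-27472341 on the plus strand of GRCh38.p14 and covers 250 bases before the start and 50 after it. The capitals mark matches to the 10-base p53 consensus unit, which p53 binds in pairs, and this window holds 2 of them side by side. This search was added after the sequence had been read. A single unit occurs in 6.61% of the 22114 promoters of genes with a single start in the table, the share with adjoining units was not computed, and a match says nothing of binding in these cells. Where guide 1 lies relative to this sequence is not given in the sources used here.
PURPL: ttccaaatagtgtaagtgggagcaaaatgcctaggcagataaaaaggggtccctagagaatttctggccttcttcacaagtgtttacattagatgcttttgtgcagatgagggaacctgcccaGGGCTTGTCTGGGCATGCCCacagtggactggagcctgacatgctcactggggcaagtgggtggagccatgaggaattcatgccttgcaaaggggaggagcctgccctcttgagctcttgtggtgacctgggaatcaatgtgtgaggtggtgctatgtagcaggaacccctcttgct

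PURPL had 17.9, 15.2 and 14.1 CPM (counts per 1000000 of the scaled library total) with guide 1, against 71.1, 77.04 and 94.3 CPM with sgCtrl. The groups did not overlap, and the mean with guide 1 was 19.5% of the mean with sgCtrl. The log2 fold change of guide 1 over sgCtrl was -2.36 ± 0.104 (SE, n = 3 libraries each, adjusted p = 2.48e-15). With guide 2 the level was 19, 21.5 and 17.9 CPM, and the difference between the guides was -0.30 on the log2 scale (adjusted p = 0.128), which did not pass the threshold of 0.05. Within 1 Mb of PURPL the table lists 12 other genes, and none had more than 1 count over the 9 libraries, so effects on neighbours could not be tested.

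Each of the 9 libraries held 11444513 to 12896040 counts, of which mitochondrial genes took 4.46% to 5.45%. Pairs of libraries of the same group had Pearson correlations of log2 CPM across genes between 0.99 and 0.993, against 0.979 to 0.989 between groups. The chi-square of the counts of a pair of libraries, per gene, was 2.39 to 2.48 within guide 1 and 2.56 to 3.12 within guide 2. Within sgCtrl it was 6.59 between replicates 1 and 2, 10.01 between replicates 1 and 3 and 4.05 between replicates 2 and 3, against 7.41 to 10.1 between guide 1 and guide 2 and 15.4 to 18.5 between guide 1 and sgCtrl. The first sgCtrl library thus lay farther from its group than the others, and list counts that move by over 1.5 times without it are given with the count without it. No pair agreed within counting noise. Of 15 fibroblast markers, 14 were tested, of which 5 (35.7%) were higher and 2 (14.3%) lower with guide 1, or 0 lower without sgCtrl replicate 1. Over all genes tested, 11.6% were higher and 12.9% lower, so the lower share was near the background. These shares over all genes also stand beside the marker counts below. DCN, decorin, was the higher one with the smallest p, at 0.55 on the log2 scale, and TWIST2 and VIM were the lower ones, at -0.80 and -0.16. The summed level of the 14 was 20530 to 20640 CPM with guide 1 and 19660 to 20690 CPM with sgCtrl. Summed levels of the other marker lists were 10.3 to 11.7 CPM with guide 1 and 8.72 to 12.3 CPM with sgCtrl for 3 endothelial markers tested, of which EGFL7 and VWF were higher and TEK was lower, and 70.3 to 76.8 CPM with guide 1 and 50.57 to 59.97 CPM with sgCtrl for 1 melanocyte marker, MITF. The 2 leukocyte markers tested and the 1 adipocyte marker tested stayed under 3 CPM in all 9 libraries. The epidermal keratins KRT1, KRT14 and KRT6A, the melanocyte and Schwann cell markers SOX10 and S100B, and the leukocyte markers CD3E, LYZ and TYROBP had 0 counts in all 9 libraries. Of the 5 keratinocyte and epithelial markers tested, 2 (40%) were higher and 1 (20%) was lower with guide 1. Their sum was 180 to 184 CPM with guide 1 and 250.1 to 326.3 CPM with sgCtrl, and most of it was KRT18 and KRT19. The 6 smooth muscle and pericyte markers tested summed to 94.1 to 104 CPM with guide 1 and 148 to 154 CPM with sgCtrl. Of these 6, 0 were higher and 4 (66.7%) lower. The part of these markers in the results was not tested.

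Of 61544 genes in the table, 13923 had enough counts to be tested, and 3417 of them (24.5%) differed between guide 1 and sgCtrl at an adjusted p under 0.05 in edgeR's quasi-likelihood test. With guide 1, 1617 genes (11.6% of those tested) were higher and 1800 (12.9%) were lower, or 1544 and 1861 without sgCtrl replicate 1. Most changes were small. The median size among the 3417 genes was 0.42 on the log2 scale, and 2285 of them (66.9%) changed by less than 1.5-fold. A change of 2-fold or more was found for 229 higher genes (1.64%) and 252 lower genes (1.81%), and of 4-fold or more for 39 and 21. The 3 guide 1 values lay wholly above or below the 3 sgCtrl values for 5135 genes (36.9% of those tested), and for 3249 of the 3417. In bulk RNA, a lower share of cells of some kind and less RNA per cell cannot be told apart.

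Most of these genes lay outside the lists of cell cycle, antioxidant and interferon genes. Genes of replication, nucleotide synthesis, mitosis, recombination, E2F control, chromatin, the antioxidant response and the interferon response made up 280 of the genes tested. The other genes held 3229 of the 3417 calls (94.5%). As the 280 are few of the 13923 genes tested, most calls would lie outside them by number alone. Of the 280, 188 were called, against 24.5% of all genes tested. Outside all 44 lists of genes used here lay 2767 calls (81%), and the share of tested genes outside them was not computed. Protein-coding genes passed in 12.4% of 11897 cases upward and 14.1% downward, and long noncoding RNAs in 7.37% of 1588 cases upward and 6.86% downward. By chromosome, genes of chromosome 19 were higher in 4.23% of 899 cases and lower in 12.2%, with a median log2 fold change of -0.08. Chromosome 16 had 5.6% of 589 genes higher and 14.6% lower, while over all genes the median was 0.00.

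**Figure D1:**
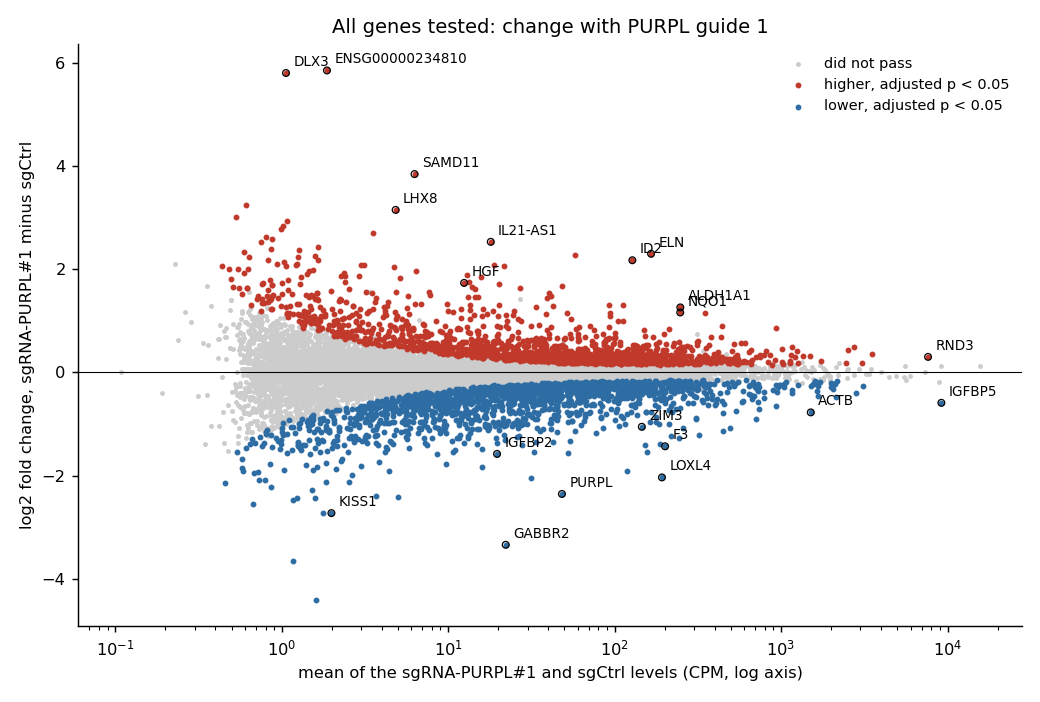
Change of each of the 13923 genes tested with guide 1 (y axis, log2 fold change of sgRNA-PURPL#1 over sgCtrl) against its mean level in both groups (x axis, CPM, log axis). Red and blue points are the 1617 higher and 1800 lower genes at an adjusted p under 0.05, grey points did not pass, and the circled genes are described in the text.

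The genes that rose most with guide 1 came mostly from low levels. They and those that fell most were ranked by fold among genes with at least 1 CPM in the higher group alone, which favours genes that are scarce in the other group. DLX3, a homeobox factor of bone, placenta and epidermis, had 21, 18 and 37 counts with guide 1, against 1, 0 and 0 with sgCtrl. The ratio of the summed counts was 76.8 (exact binomial 95% interval 13.4 to 3074, counting error only). SAMD11, a nuclear protein of the retina and other tissues, had 10.5, 12.5 and 12.3 CPM with guide 1, against 0.607, 1.09 and 0.705 CPM with sgCtrl. LHX8, a LIM homeobox factor of forebrain, tooth and germ cells, had 8.95, 7.61 and 9.59 CPM with guide 1, against 0.867, 1.01 and 1.02 CPM with sgCtrl, a log2 fold change of 3.15 ± 0.216 (adjusted p = 1.2e-12). Both genes were near 1 CPM in every sgCtrl library and several-fold above it in every guide 1 library. ALX4, a homeobox factor of skull and hair follicle mesenchyme, had 2.49, 2.77 and 3.14 CPM with guide 1, against 0.52, 0.856 and 0.157 CPM with sgCtrl. AGTR1, the main angiotensin II receptor, had 2.1, 2.54 and 1.74 CPM with guide 1, against 0.694, 0.311 and 0.235 CPM with sgCtrl. POSTN, the matricellular protein periostin, stayed scarce, at 1.95, 1.35 and 2.09 CPM with guide 1, against 0.173, 0.467 and 0.0783 CPM with sgCtrl. The other genes among the 15 highest with a symbol were NBPF6, DUSP2, LINC02593, CTTNBP2, AKR1B10, PTGER3, IL21-AS1, GLDN and ELN, with log2 fold changes between 2.30 and 3.24.

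Elastin was the most abundant of these 15. ELN, the core protein of elastic fibres, had 285, 279 and 262 CPM with guide 1, against 55.4, 58.7 and 53.4 CPM with sgCtrl, a log2 fold change of 2.30 ± 0.0633 (adjusted p = 8.08e-22). It was higher still with guide 2, at 422, 426 and 419 CPM, and the difference between guide 1 and guide 2 was -0.62 (adjusted p = 5.37e-09).

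The genes that fell most were led by a gene with almost no counts left. C10orf105 had 4, 0 and 1 counts with guide 1, against 40, 37 and 37 with sgCtrl. GABBR2, which pairs with GABBR1 in the receptor for the inhibitory transmitter GABA, had 4.12, 3.96 and 3.83 CPM with guide 1, against 36.5, 42.02 and 42.7 CPM with sgCtrl, a log2 fold change of -3.34 ± 0.119 (adjusted p = 2.51e-19). CNGA3, a cyclic nucleotide-gated channel of cone photoreceptors, had 1.56, 1.35 and 1.83 CPM with guide 1, against 7.37, 8.87 and 9.08 CPM with sgCtrl. In each of these the highest guide 1 library was below the lowest sgCtrl library by more than 2-fold. KISS1, the precursor of the kisspeptin hormone, had 0.311, 0.555 and 0.697 CPM with guide 1, against 3.12, 3.5 and 3.76 CPM with sgCtrl. RGCC, a regulator of the cell cycle named for its response to complement, had 0.622, 0.396 and 0.349 CPM with guide 1, against 2.95, 3.04 and 3.29 CPM with sgCtrl. PALMD, the membrane-associated protein palmdelphin, had 1.87, 0.555 and 1.05 CPM with guide 1, against 5.81, 6.46 and 6.26 CPM with sgCtrl. HAS2, a hyaluronan synthase, had 0.0778, 0.475 and 0.261 CPM with guide 1, against 1.13, 1.09 and 1.33 CPM with sgCtrl. PURPL itself was the 11th lowest of the 15 by this ranking, and ERICH5, KCNB2, TEX29, THRB-AS1, NLRP10, PARD6B and MBP were the others.

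In absolute terms the largest gains and losses were in other genes. RND3, an atypical GTPase that opposes actin stress fibres, gained most, at 8517, 8306 and 8482 CPM with guide 1, against 6921, 6647 and 6952 CPM with sgCtrl. IGFBP5, a secreted binder of insulin-like growth factors, lost most, at 7579.9, 7017 and 7409.8 CPM with guide 1, against 10128, 11545 and 11425 CPM with sgCtrl. The cytoplasmic actins fell together, ACTB to 1076, 1073 and 1189.7 CPM with guide 1, against 2038, 1998 and 1675 CPM with sgCtrl, and ACTG1 to 1832, 1759 and 1793 CPM, against 2519, 2625 and 2336 CPM. The ferritin chains FTH1 and FTL, which store iron, were among the 10 that gained most, with log2 fold changes of 0.36 and 0.49, as were FN1, TXNRD1, PRNP, LMO7 and the mitochondrial ribosomal RNA MT-RNR1. TMSB4X and EEF2 were also among them, but EEF2 lost its call without guide 1 replicate 1 or 2, and TMSB4X without guide 1 replicate 2 or 3 or sgCtrl replicate 2 or 3. CCND1, A2M, LDHA, CAVIN1, FLNA, SEPTIN11 and COL12A1 completed the 10 that lost most, with log2 fold changes between -0.90 and -0.26. The groups overlapped for COL12A1, which lost its call without any 1 of the guide 1 libraries and without sgCtrl replicate 2 or 3.

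**Figure D2:**
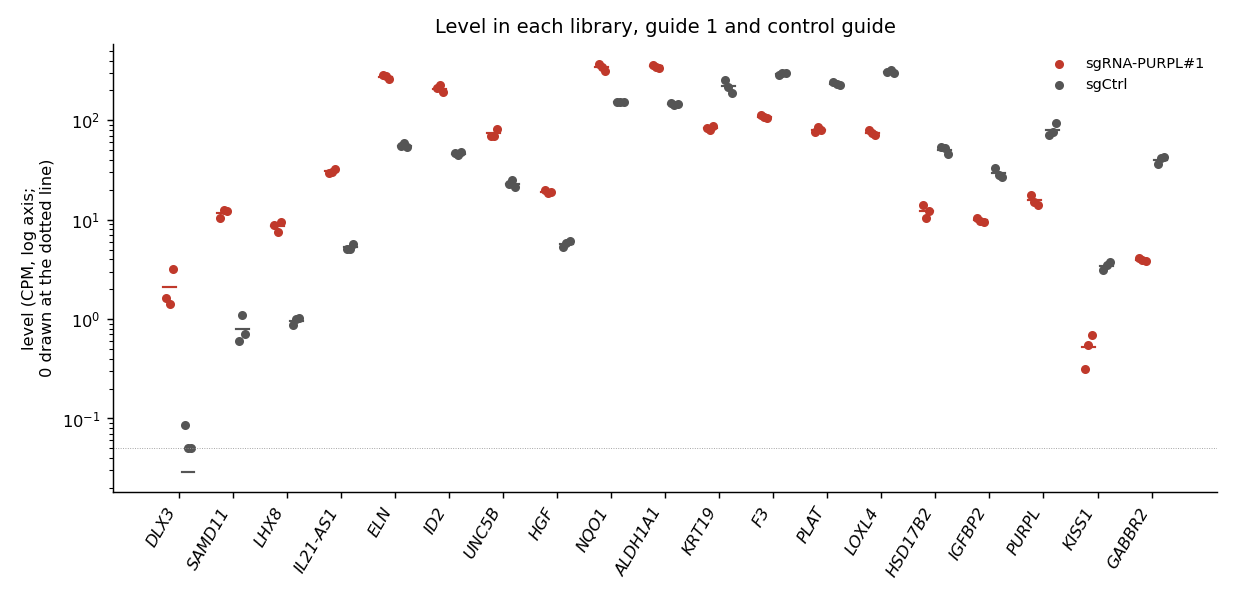
Level of 19 genes in each library (points, CPM, log axis) with the mean of each group (short lines), guide 1 in red left of sgCtrl in grey. In none of the 19 genes do the guide 1 and sgCtrl points overlap, which was a condition of choice for many of them. Over all genes tested, 36.9% did not overlap. The 2 sgCtrl libraries of DLX3 with 0 counts are drawn at the dotted line.

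Genes of cell division fell with guide 1. Of 52 genes of the spindle, kinetochore and cytokinesis tested, 50 were lower and 0 higher, and 20 fell by 2-fold or more, with a median log2 fold change of -0.93, against 12.9% lower over all genes tested. ANLN, the cytokinetic ring protein anillin, had 129, 129 and 134 CPM with guide 1, against 277, 305 and 334 CPM with sgCtrl. AURKA, the kinase that builds spindle poles, had 28.01, 28.8 and 27.2 CPM with guide 1, against 63.8, 61.3 and 61.4 CPM with sgCtrl. TOP2A, which untangles DNA before chromosomes part, had 124, 129 and 124 CPM with guide 1, against 238, 215 and 230.3 CPM with sgCtrl. Of 33 replication genes, 24 were lower and 0 higher (median -0.40), and of 29 genes of recombination and Fanconi repair 22 were lower and 0 higher (median -0.60). RRM2, a subunit of ribonucleotide reductase, had 48.3, 45.5 and 48.4 CPM with guide 1, against 99.9, 110.4 and 109 CPM with sgCtrl. The fall of the mitotic genes was deeper than with guide 2. There, 47 of the 52 were lower with a median of -0.52, against 12.4% lower over all genes. In the test of the difference, 29 of the 52 were lower with guide 1 than with guide 2, against 5.51% of all genes. For ANLN that difference was -0.56 ± 0.0649 (adjusted p = 3.21e-07). Of the replication genes, 0 were lower and 1 was higher with guide 1 than with guide 2.

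The promoters of these lists carried different letters. TTTGAA, the core of the CHR element of genes expressed in G2 and mitosis, was searched on both strands in the 300-base promoters of genes with a single start in the RefSeq table, of which 7317 matched genes tested. It occurred in 73.7% of 38 promoters of the mitotic list, in 0% of 23 of the replication list, and in 9.65% of all 7317. Among genes that changed by 2-fold or more, it was in 25.2% of 111 promoters of lower and 15.4% of 104 of higher ones. The lower ones include members of the mitotic list. The E2F-type letters TTTCCCGC, TTTGGCGC and TTTCGCGC occurred in 30.4%, 26.1% and 13% of the 23 replication promoters, against 2.73%, 1.04% and 1.01% of all. These matches describe the lists, which were drawn up by function, and say nothing of what acted in these cells. The stretches shown are those of the members with the smallest p that held a match, each 5′ to 3′ on the strand of the gene, with the matches on either strand in capitals. They lie at chr7:36389797-36389892 (ANLN, plus strand), chr17:40417997-40418092 (TOP2A, minus strand), chr14:55191536-55191627 (DLGAP5, minus strand), chr17:40287841-40287928 (CDC6, plus strand) and chr1:35769931-35770028 (CLSPN, minus strand) of GRCh38.p14.
ANLN: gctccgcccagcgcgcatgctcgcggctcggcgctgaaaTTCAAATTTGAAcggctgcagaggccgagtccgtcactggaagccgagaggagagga
TOP2A: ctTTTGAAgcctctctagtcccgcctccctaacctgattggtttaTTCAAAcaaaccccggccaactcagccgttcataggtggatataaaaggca
DLGAP5: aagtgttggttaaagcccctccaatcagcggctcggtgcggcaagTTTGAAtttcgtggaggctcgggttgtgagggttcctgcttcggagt
CDC6: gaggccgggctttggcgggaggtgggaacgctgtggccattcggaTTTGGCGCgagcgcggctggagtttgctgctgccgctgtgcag
CLSPN: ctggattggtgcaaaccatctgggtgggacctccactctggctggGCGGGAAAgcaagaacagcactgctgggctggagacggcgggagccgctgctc

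Cyclins, their inhibitors and chromatin genes moved less uniformly. Of 31 genes of E2F control and CDK inhibition, 11 (35.5%) were lower and 2 (6.45%) higher, against 12.9% and 11.6% over all genes. The lower ones by p were MYBL2, CCND1, FOXM1, CDKN2C and CDK2. FOXM1, a transcription factor of mitotic genes, had 20.8, 18.1 and 21.2 CPM with guide 1, against 28.2, 35.3 and 36.2 CPM with sgCtrl, while its log2 fold change with guide 2 was -0.15 (adjusted p = 0.276). The difference between guide 1 and guide 2 was -0.59 (adjusted p = 9.57e-05). Of 33 lamina, HMGB and chromatin genes, 15 were lower and 1, HMGB3, was higher. HMGA1, an architectural chromatin protein, had 161, 151 and 164 CPM with guide 1, against 268, 274 and 249 CPM with sgCtrl. UHRF1, which maintains DNA methylation, had 25.5, 27.2 and 29.98 CPM with guide 1, against 47.3, 54.2 and 60.7 CPM with sgCtrl. Among 27 p53 targets, 8 were higher and 0 lower with a median of 0.08, and the named members SPATA18, GDF15, RRM2B, CYFIP2 and XPC changed by 0.22 to 0.39 on the log2 scale. Without guide 1 replicate 2 or 3 the count of higher p53 targets was 5, and without sgCtrl replicate 1 there was 1 lower p53 target and 2 chromatin genes were higher.

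Antioxidant genes rose with guide 1. Of 37 genes of the NRF2 and antioxidant list, 30 were higher and 0 lower, with a median log2 fold change of 0.47, against 11.6% higher over all genes. NQO1, the quinone reductase most used as an NRF2 readout, had 366, 348 and 314 CPM with guide 1, against 153, 153 and 153 CPM with sgCtrl, a log2 fold change of 1.16 ± 0.0622 (adjusted p = 5.61e-15). SLC7A11, the cystine importer, had 159, 159 and 165 CPM with guide 1, against 55.8, 63.7 and 75.1 CPM with sgCtrl. HMOX1, which breaks down haem, had 52.8, 53.97 and 54.9 CPM with guide 1, against 28.02, 30.2 and 29.4 CPM with sgCtrl. In each of these the lowest guide 1 library was above the highest sgCtrl library. TXNIP, which inhibits thioredoxin and so acts against the name of the list, also rose, with 364, 359 and 387 CPM with guide 1, against 261, 256 and 252 CPM with sgCtrl. Between guides, 14 of the 37 were higher with guide 1 than with guide 2 (3.74% over all genes). NQO1 differed between the guides by 0.69 (adjusted p = 2.34e-09), whereas for SLC7A11 the difference was 0.09 ± 0.0763 (adjusted p = 0.564). The aldo-keto reductase AKR1B10 had 1.24, 1.74 and 1.57 CPM with guide 1, against 0.0867, 0.467 and 0.157 CPM with sgCtrl. TGACNNNGC, the core of the antioxidant response element, was in 21.1% of 19 promoters of the list, against 15.8% of all. Among genes that rose it was in 14.2%. Other lists searched had it in 13% (replication), 23.7% (mitotic), 22.7% (interferon) and 25% (ATF4 amino acid response), so the antioxidant list did not stand out. NMRAL2P, a transcribed pseudogene reported as an NRF2 target, had 21.8, 22.8 and 21.7 CPM with guide 1, against 7.98, 6.93 and 9.16 CPM with sgCtrl.

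Fewer interferon-stimulated genes passed with guide 1 than with guide 2. Of 43 tested, 20 were higher and 1 lower (2 without sgCtrl replicate 1) with a median of 0.17, against 11.6% higher over all genes. With guide 2, 37 were higher with a median of 0.38, against 11.9% over all genes. In the test of the difference, 23 of the 43 were lower with guide 1 than with guide 2, against 5.51% of all genes. BST2, the surface protein tetherin, had 56.95, 54.05 and 48.3 CPM with guide 1, against 28.5, 23.3 and 21.3 CPM with sgCtrl. IFI44L had 105, 108 and 113 CPM with guide 1, against 68.4, 67.2 and 73.4 CPM with sgCtrl, and the difference between guide 1 and guide 2 was -0.45 (adjusted p = 3.85e-06). IFIT2, an interferon-induced RNA-binding protein, had 149, 163 and 159 CPM with guide 1, 250.3, 246 and 263 CPM with guide 2, against 108, 119 and 98.6 CPM with sgCtrl. The order of these levels was guide 2, guide 1 and sgCtrl, with no overlap. The interferon-stimulated response element, searched as a pair of GAAA runs with 2 bases of any kind between them, was in 72.7% of 22 promoters of this list and in 3.06% of all. The stretches of the 2 members with the smallest p lie at chr19:17405700-17405799 (BST2, minus strand) and chr1:78620330-78620429 (IFI44L, plus strand) of GRCh38.p14, with the matches in capitals.
BST2: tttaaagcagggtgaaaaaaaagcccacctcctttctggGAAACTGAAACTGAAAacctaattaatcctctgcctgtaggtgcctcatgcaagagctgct
IFI44L: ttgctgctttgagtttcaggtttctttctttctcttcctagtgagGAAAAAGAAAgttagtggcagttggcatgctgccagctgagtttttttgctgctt

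Genes of amino acid supply rose as well. Of 33 genes of the ATF4 response, 20 (60.6%) were higher and 1 (3.03%) lower with a median of 0.25. Over all genes tested, 11.6% were higher and 12.9% lower. DDIT4, an inhibitor of mTOR signalling, had 25.9, 25.7 and 28.1 CPM with guide 1, against 14.9, 15.3 and 13.2 CPM with sgCtrl. PSAT1, an enzyme of serine synthesis, had 57.3, 63.5 and 61.1 CPM with guide 1, against 40.1, 38.99 and 37.6 CPM with sgCtrl. WARS1, a transfer RNA synthetase that interferon also induces, had 291, 297 and 291 CPM with guide 1, against 199, 193 and 195 CPM with sgCtrl. Glycolysis genes went the other way, with 14 of 29 (48.3%) lower and 2 (6.9%) higher (median -0.19). LDHA, lactate dehydrogenase A, had 733, 727 and 733 CPM with guide 1, against 1161, 1106 and 1171 CPM with sgCtrl, and the glucose importer SLC2A1 had 94.5, 102 and 104 CPM with guide 1, against 161, 157 and 149 CPM with sgCtrl. VEGFA, which hypoxia also induces, was higher, at 88.3, 85.7 and 85.7 CPM with guide 1, against 62.8, 68.1 and 65.6 CPM with sgCtrl. Of 29 genes of mitochondrial respiration, 1 was higher and 1 lower (3.45% each), and of 40 cytosolic ribosomal proteins 2 (5%) were higher and 0 lower. Both lists were below the shares over all genes in this fit. Without sgCtrl replicate 1 these counts were 3 and 2 for respiration, and 9 of the ribosomal proteins were higher.

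Cholesterol genes separated guide 1 from guide 2. Of 24 genes of cholesterol synthesis and uptake, 12 were higher and 0 lower with guide 1, against 11.6% and 12.9% over all genes. Their median was 0.21. With guide 2, 2 were higher and 5 lower, against 11.9% and 12.4% over all genes. In the test between guides, 12 of the 24 were higher with guide 1 and 0 lower, against 3.74% and 5.51% over all genes. The counts of guide 1 against sgCtrl were 7 higher and 1 lower without guide 1 replicate 2. Without sgCtrl replicate 1 they were 10 higher and 2 lower. HMGCS1, an early enzyme of the pathway, had 184, 186 and 191 CPM with guide 1, 146, 148 and 147 CPM with guide 2, against 134, 129 and 127 CPM with sgCtrl. Guide 1 differed from guide 2 by 0.35 ± 0.0571 (adjusted p = 6.64e-05). ABCA1, the exporter of cholesterol, rose with both guides, by 1.00 on the log2 scale with guide 1 and 0.60 with guide 2. SCD, the desaturase that makes oleate, had 749, 732 and 702 CPM with guide 1, 495, 521 and 517 CPM with guide 2, against 463, 484 and 516 CPM with sgCtrl. Among 36 genes of fatty acids and lipid droplets, 7 (19.4%) were higher and 5 (13.9%) lower, the latter near the share over all genes. Between guides, 8 were higher and 3 lower with guide 1 than with guide 2. Without guide 1 replicate 3, 3 were lower against sgCtrl. MGLL, which splits monoglycerides, had 70.3, 67.4 and 71.2 CPM with guide 1, against 134, 142 and 119 CPM with sgCtrl.

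**Figure D3:**
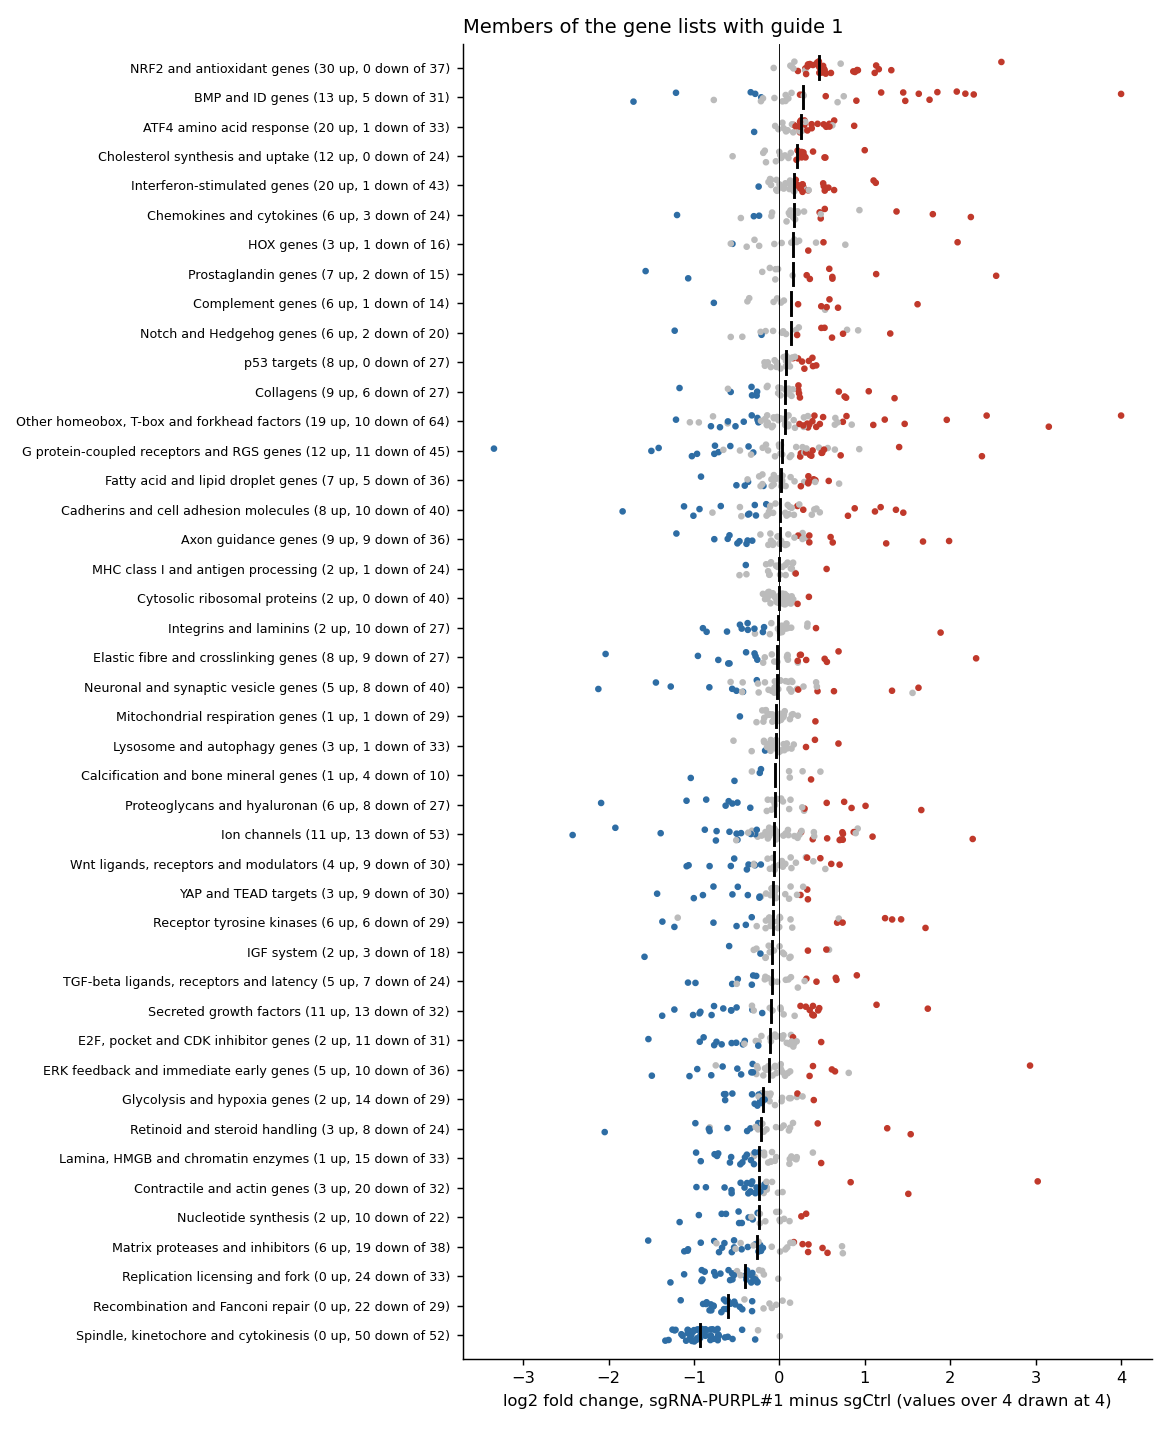
Log2 fold change of every tested member of the 44 gene lists with guide 1 (points: red higher, blue lower, grey did not pass), with each list's median as a black bar. The lists run from the antioxidant genes (median 0.47) at the top to the spindle genes (median -0.93) at the bottom, and most others hold members that moved in both directions.

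ID genes and other genes of the BMP pathway rose. BMP ligands activate SMAD1, SMAD5 and SMAD9, which switch on the ID genes and the inhibitory SMADs. ID2 had 209.8, 225 and 193 CPM with guide 1, against 46.6, 44.4 and 47.99 CPM with sgCtrl, a log2 fold change of 2.18 ± 0.0683 (adjusted p = 1.18e-20). ID1 had 99.8, 93.99 and 94.7 CPM with guide 1, against 24.2, 19.7 and 15.97 CPM with sgCtrl. ID3 had 25.6, 25.8 and 22.8 CPM with guide 1, against 8.07, 7.39 and 5.25 CPM with sgCtrl. All 3 ID genes were more than 2-fold higher in every guide 1 library than in any sgCtrl library. The inhibitory SMAD6 had 19.3, 22.7 and 19.5 CPM with guide 1, against 6.33, 5.6 and 6.26 CPM with sgCtrl. ATOH8, a helix-loop-helix factor, had 46.7, 37.01 and 39.3 CPM with guide 1, against 13.1, 14.7 and 11.9 CPM with sgCtrl. Over the list of 31 genes, 13 (41.9%) were higher and 5 (16.1%) lower, against 11.6% and 12.9% over all genes. The median was 0.27, and 10 of the 13 rose by 2-fold or more. With guide 2, 14 were higher and 2 lower, against 11.9% and 12.4% over all genes. The count of lower members with guide 1 was 3 in DESeq2's test and without guide 1 replicate 1 or 2, and 2 without sgCtrl replicate 2. Of those that were lower, the ligand GDF5, picked after its values were seen, had 1.24, 0.872 and 1.05 CPM with guide 1, against 3.56, 3.74 and 3.13 CPM with sgCtrl. For ID1, ID2 and ID3 the test between guides was not passed, with differences of -0.19, -0.12 and -0.25 (adjusted p between 0.115 and 0.283).

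TGF-beta genes moved in both directions, and targets of YAP and TEAD were lower more often than higher. Of 24 TGF-beta genes, 5 were higher and 7 lower. TGFBR3, the co-receptor betaglycan, had 30.03, 29.1 and 27.5 CPM with guide 1, against 37.2, 43.7 and 46.04 CPM with sgCtrl. INHBA, a subunit of activin, had 20.2, 21.7 and 21.6 CPM with guide 1, against 11.7, 11.6 and 10.6 CPM with sgCtrl. TGFBI, a secreted matrix protein, had 62.9, 63.8 and 59.01 CPM with guide 1, against 43.5, 39.5 and 34.8 CPM with sgCtrl. In the test between guides, 10 of the 24 were lower with guide 1 than with guide 2 and 0 higher. Of 30 YAP and TEAD targets, 9 were lower and 3 higher with guide 1, and 14 were lower with guide 1 than with guide 2. Over all genes these shares were 12.9% lower, 11.6% higher and 5.51% lower than with guide 2, so that the count of higher members (10% of 30) was below the background. F3, tissue factor, the starter of blood clotting, had 113, 107 and 105 CPM with guide 1, 199.7, 186 and 208 CPM with guide 2, against 284, 299 and 298 CPM with sgCtrl. Its levels did not overlap between any of the 3 groups, and the difference between guide 1 and guide 2 was -0.86 ± 0.0615 (adjusted p = 1.86e-11). CCN1, a matricellular protein, had 123, 120.3 and 128 CPM with guide 1, against 247, 249.9 and 247 CPM with sgCtrl. IGFBP3 rose with both guides, by 0.33 on the log2 scale with guide 1 and 0.94 with guide 2.

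Contractile and actin genes were lower with guide 1. Of 32 tested, 20 (62.5%) were lower and 3 (9.38%) higher (median -0.24), against 12.9% and 11.6% over all genes. With guide 2, 6 were lower and 6 higher, against 12.4% and 11.9% over all genes. In the test of the difference, 18 of the 32 were lower with guide 1 than with guide 2 and 1 was higher. Over all genes these shares were 5.51% and 3.74%. TAGLN, the actin-binding protein transgelin, had 170.1, 167 and 176 CPM with guide 1, 255, 248 and 239 CPM with guide 2, against 303, 251 and 247 CPM with sgCtrl. CNN1, calponin, had 35.2, 31.9 and 28.9 CPM with guide 1, 44.4, 51.5 and 44.1 CPM with guide 2, against 61.9, 54.8 and 58.3 CPM with sgCtrl. SMTN, smoothelin, had 27.6, 30.3 and 25.9 CPM with guide 1, against 58.3, 58.8 and 47.6 CPM with sgCtrl. SYNPO2, an actin-bundling protein, went against the list, at 288, 264 and 264 CPM with guide 1, against 133, 158 and 167 CPM with sgCtrl. The other higher members, picked after their values were seen, were ACTC1, the cardiac actin, at 0.934, 0.872 and 1.05 CPM with guide 1, against 0.0867, 0.156 and 0.0783 CPM with sgCtrl, and MYOCD, a coactivator of smooth muscle genes. MYOCD had 1.79, 2.22 and 2.27 CPM with guide 1, against 0.607, 0.389 and 1.17 CPM with sgCtrl. The summed smooth muscle and pericyte markers were lower in the same libraries, as given above, and CNN1 is a member of both lists. Whether the share of cells of that kind moved with guide 1 was not tested.

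Genes of the extracellular matrix moved in both directions at the RNA level. Of 27 genes of elastic fibres and crosslinking, 8 (29.6%) were higher and 9 (33.3%) lower, against 11.6% and 12.9% over all genes. ELN rose as described, while LOX, LOXL1, LOXL2 and LOXL4, lysyl oxidases that crosslink elastin and collagen, fell. The related LOXL3, picked after its values were seen, was higher by 0.21 on the log2 scale (adjusted p = 0.0301). LOXL4 had 80.6, 73.9 and 71.9 CPM with guide 1, against 306, 324 and 298 CPM with sgCtrl, a log2 fold change of -2.04 ± 0.0629 (adjusted p = 1.17e-20). LOX had 228, 246 and 233 CPM with guide 1, against 356, 358 and 358 CPM with sgCtrl. LOXL2 had 558, 549 and 570.0 CPM with guide 1, against 879.8, 965 and 910.2 CPM with sgCtrl. TGM2, a transglutaminase, had 125, 121 and 114 CPM with guide 1, against 222, 250.1 and 226 CPM with sgCtrl. Among 27 collagens, 9 (33.3%) were higher and 6 (22.2%) lower, led by the fibrillar chain COL11A1 and COL16A1 upward, and by COL8A1 and COL5A3 downward. COL11A1 had 132, 121 and 129 CPM with guide 1, against 72.8, 80.5 and 70.9 CPM with sgCtrl. Of 27 proteoglycan and hyaluronan genes, 6 were higher and 8 lower. VCAN, the large proteoglycan versican, had 21.2, 22.7 and 19.3 CPM with guide 1, against 5.81, 5.14 and 9 CPM with sgCtrl. BGN, biglycan, had 156, 155 and 138 CPM with guide 1, 95.5, 97.4 and 106 CPM with guide 2, against 72.3, 76.3 and 75 CPM with sgCtrl, and was higher with guide 1 than with guide 2 by 0.59 (adjusted p = 1.02e-07). SDC4, a syndecan of focal adhesions, had 58.7, 59.4 and 59.01 CPM with guide 1, against 111, 108 and 102 CPM with sgCtrl.

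Matrix proteases and their inhibitors were more often lower than higher. Of 38 tested, 19 (50%) were lower and 6 (15.8%) higher (median -0.26), against 12.9% and 11.6% over all genes. Between guides, 15 were lower and 5 higher with guide 1 than with guide 2, against 5.51% and 3.74% over all genes. PLAT, tissue plasminogen activator, had 77.03, 85.6 and 79.1 CPM with guide 1, against 241, 233 and 228 CPM with sgCtrl. MMP3, stromelysin 1, had 306, 311 and 337 CPM with guide 1, against 722, 641 and 647 CPM with sgCtrl, whereas MMP1, the interstitial collagenase, was higher at 278, 272 and 264 CPM with guide 1, against 189, 180.5 and 182 CPM with sgCtrl. The family of ADAMTS symbols, 16 genes, had 6 lower and 3 higher, with ADAMTS6 at 10.97, 11.6 and 10.5 CPM with guide 1, against 22.6, 24.4 and 24.6 CPM with sgCtrl. Integrins and laminins had 10 of 27 lower and 2 higher. ITGA6, an integrin that binds laminin, had 215, 216 and 214 CPM with guide 1, against 367, 403 and 432 CPM with sgCtrl. ITGA8, the nephronectin receptor, went against it, at 18.4, 22.8 and 19.8 CPM with guide 1, 8.26, 8.73 and 8.53 CPM with guide 2, against 5.2, 5.53 and 5.72 CPM with sgCtrl, and FN1, fibronectin, was the other member that rose.

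Secreted growth factors moved in both directions. Of 32 tested, 11 (34.4%) were higher and 13 (40.6%) lower, against 11.6% and 12.9% over all genes. HGF, hepatocyte growth factor, had 20.1, 18.5 and 19 CPM with guide 1, 11.5, 12 and 10.02 CPM with guide 2, against 5.29, 5.84 and 6.11 CPM with sgCtrl, and was higher with guide 1 than with guide 2 by 0.78 (adjusted p = 7.07e-06). FGF1 had 37.1, 39.2 and 37.4 CPM with guide 1, 58.6, 62.4 and 56.8 CPM with guide 2, against 69.9, 75.1 and 72.5 CPM with sgCtrl. Both followed a graded order over the 3 groups, in opposite directions. FGF5, which ends the growth phase of hair, had 130.1, 122 and 118 CPM with guide 1, against 197, 201 and 231 CPM with sgCtrl. EREG, an EGF receptor ligand, had 580.3, 585 and 588 CPM with guide 1, against 834, 846 and 913 CPM with sgCtrl. Genes of ERK feedback were lower in 10 of 36 cases (27.8%) and higher in 5 (13.9%), the latter near the share over all genes. DUSP4, a phosphatase of MAP kinases, had 7.94, 8.95 and 8.28 CPM with guide 1, against 24.8, 23.7 and 22.5 CPM with sgCtrl. DUSP6 had 21.4, 20.8 and 23.4 CPM with guide 1, against 43.5, 34.9 and 35.6 CPM with sgCtrl, while the phosphatase DUSP2 rose to 2.26, 1.82 and 1.66 CPM with guide 1, against 0.26, 0.0778 and 0.391 CPM with sgCtrl. Among 30 Wnt genes, 9 (30%) were lower and 4 (13.3%) higher, the latter near the share over all genes. The list was led by WNT5B at 53.3, 56.98 and 53.9 CPM with guide 1, against 127, 118 and 104 CPM with sgCtrl. The count of lower Wnt genes was 5 in DESeq2's test and without guide 1 replicate 1, and that of higher ones was 2 without sgCtrl replicate 1. Among 29 receptor tyrosine kinases, 6 were higher and 6 lower, with AXL lower and EPHA4 and EPHA5 higher.

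In the IGF system IGFBP2 was lowest relative to control. IGFBP2, a circulating binder of insulin-like growth factors, had 10.3, 9.67 and 9.5 CPM with guide 1, 33.95, 35.1 and 34.4 CPM with guide 2, against 33.1, 28.2 and 27.2 CPM with sgCtrl. Only the guide 1 libraries were low, and guide 1 differed from guide 2 by -1.81 ± 0.099 (adjusted p = 3.44e-14). PAPPA, the protease that cleaves IGF-binding proteins, had 239.9, 246 and 242 CPM with guide 1, against 146, 163 and 188 CPM with sgCtrl. Of the 18 IGF genes, 2 (11.1%) were higher and 3 (16.7%) lower, near the shares of 11.6% and 12.9% over all genes.

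Inflammatory mediators did not move as a block. Of 24 chemokine and cytokine genes tested, 6 (25%) were higher and 3 (12.5%) lower. Over all genes these shares were 11.6% and 12.9%, so the lower share was near the background. CXCL8, the neutrophil attractant interleukin 8, was scarce at 1.63, 1.82 and 1.66 CPM with guide 1, against 0.26, 0.389 and 0.783 CPM with sgCtrl. CXCL1 had 5.91, 6.18 and 6.8 CPM with guide 1, against 2.78, 2.57 and 1.96 CPM with sgCtrl. IL1B, interleukin 1 beta, fell to 3.5, 2.93 and 4.01 CPM with guide 1, against 6.77, 8.95 and 8.14 CPM with sgCtrl. Complement genes had 6 of 14 (42.9%) higher and 1 (7.14%) lower. C3, the central complement component, had 22.6, 19.02 and 23.97 CPM with guide 1, against 7.29, 6.77 and 7.28 CPM with sgCtrl. C1S had 466, 468 and 479 CPM with guide 1, against 286, 307 and 285 CPM with sgCtrl. C3, C1S, C1R and CD46 overlap a gene on the same strand, and reads in such shared stretches were not counted for either gene. Prostaglandin genes had 7 of 15 (46.7%) higher and 2 (13.3%) lower, or 1 lower without sgCtrl replicate 1. PTGS2, the inducible cyclooxygenase, had 23.9, 27.3 and 28.2 CPM with guide 1, against 73.3, 75.9 and 85.7 CPM with sgCtrl. PTGES, the synthase that acts after it, had 26.4, 29.3 and 27.3 CPM with guide 1, against 16.1, 17.6 and 20.2 CPM with sgCtrl. Of 24 genes of MHC class I and antigen processing 2 were higher and 1 lower (4 and 2 without sgCtrl replicate 1), and of 33 lysosome and autophagy genes 3 were higher and 1 lower, with GABARAPL1 at 562, 532 and 514 CPM with guide 1, against 325, 339 and 333 CPM with sgCtrl.

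Retinoid and steroid enzymes showed large single changes. ALDH1A1, which makes retinoic acid, had 363, 348 and 339.9 CPM with guide 1, 1087, 1062 and 1116 CPM with guide 2, against 149, 143 and 147 CPM with sgCtrl. It rose with both guides, and the difference between guide 1 and guide 2 was -1.64 ± 0.0565 (adjusted p = 2.79e-19). HSD17B2, which inactivates oestradiol and testosterone, had 14.1, 10.5 and 12.3 CPM with guide 1, against 54.2, 52.8 and 45.4 CPM with sgCtrl. CYP1B1, a cytochrome P450 that oxidises oestradiol and retinoids, had 59.9, 59.7 and 61.4 CPM with guide 1, against 24.4, 17.3 and 20.9 CPM with sgCtrl. RDH10, which makes retinal, had 93.4, 102 and 100.1 CPM with guide 1, against 175, 174 and 172 CPM with sgCtrl. Over the list of 24, 3 (12.5%) were higher, near the 11.6% over all genes, and 8 (33.3%) were lower, against 12.9%. The median was -0.22. Of 10 calcification genes 1 was higher and 4 lower, among them the phosphate importers SLC20A1, with a log2 fold change of -0.53, and SLC20A2, with -1.04.

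Developmental transcription factors moved upward more often than downward. Of 64 homeobox, T-box, forkhead and related factors, 19 were higher and 10 lower, against 11.6% higher and 12.9% lower over all genes. PRRX2, a homeobox factor of mesenchyme, had 23.3, 22.2 and 22.6 CPM with guide 1, against 10.2, 9.26 and 9.47 CPM with sgCtrl. SOX4 had 25.4, 22.4 and 16.2 CPM with guide 1, against 8.15, 6.85 and 8.3 CPM with sgCtrl. SNAI2, a zinc finger repressor of epithelial genes, had 256, 254 and 238 CPM with guide 1, against 165, 137 and 145 CPM with sgCtrl. Of 39 HOX genes listed, 16 were tested, of which 3 were higher and 1 lower, or 0 lower without sgCtrl replicate 1. HOXD10, one of the higher, lost its call without sgCtrl replicate 1. HOXA13, which marks distal skin and limb, had 177, 177 and 169 CPM with guide 1, against 116, 126 and 124 CPM with sgCtrl. HOXC13, a factor of hair and nail, had 1.79, 2.3 and 1.83 CPM with guide 1, against 0.434, 0.545 and 0.391 CPM with sgCtrl. The neighbouring antisense transcript HOXC13-AS had 3.73, 3.01 and 4.62 CPM with guide 1, against 1.56, 0.623 and 0.94 CPM with sgCtrl. The Notch and Hedgehog list had 6 of 20 higher and 2 lower, with 3 higher in DESeq2's test. GLI2, a Hedgehog effector, had 21.8, 23.7 and 23.5 CPM with guide 1, against 11.8, 15.4 and 17.6 CPM with sgCtrl.

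Guidance, adhesion and channel genes changed in both directions. Axon guidance genes had 9 of 36 higher and 9 lower (25% each), against 11.6% and 12.9% over all genes. UNC5B, a netrin receptor, had 69.9, 70.1 and 82.4 CPM with guide 1, against 22.9, 25.1 and 21.2 CPM with sgCtrl. NTN4, a netrin of basement membranes, had 183, 197 and 199.5 CPM with guide 1, against 465, 430.3 and 442 CPM with sgCtrl. SEMA3E had 7.55, 8.48 and 7.84 CPM with guide 1, 3.3, 3.94 and 4.07 CPM with guide 2, against 3.64, 3.04 and 3.37 CPM with sgCtrl, so that only guide 1 was high. Cadherins and cell adhesion molecules had 8 of 40 higher and 10 lower. PCDH10, a protocadherin, had 58.98, 58.1 and 55.3 CPM with guide 1, against 17.7, 22.6 and 22.5 CPM with sgCtrl. CLDN1, a tight junction claudin, had 14.7, 12.1 and 14.6 CPM with guide 1, against 6.16, 5.76 and 6.26 CPM with sgCtrl. Ion channels had 11 of 53 higher and 13 lower, and the count of higher ones was 7 without guide 1 replicate 1 or 3 and 6 in DESeq2's test. G protein-coupled receptors and RGS genes had 12 of 45 higher and 11 lower, with 7 lower in DESeq2's test. OXTR, the oxytocin receptor, had 395, 404 and 402 CPM with guide 1, 614, 592 and 596 CPM with guide 2, against 706, 641 and 679 CPM with sgCtrl. GPRC5A had 14.9, 15.9 and 14.8 CPM with guide 1, 32.7, 31.5 and 31.9 CPM with guide 2, against 38.5, 42.4 and 40.9 CPM with sgCtrl. Neuronal genes had 5 of 40 higher (12.5%, near the 11.6% over all genes) and 8 lower (20%, against 12.9%), with NEFH, the heavy neurofilament, at 141, 124 and 131 CPM with guide 1, against 47.97, 54.9 and 55.8 CPM with sgCtrl, and RAB3B, a GTPase of secretory vesicles, at 139.8, 145 and 143 CPM with guide 1, against 312, 348 and 375 CPM with sgCtrl.

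Among long noncoding RNAs, IL21-AS1 rose with the smallest p. It had 29.5, 30.6 and 32.2 CPM with guide 1, against 5.12, 5.06 and 5.72 CPM with sgCtrl, a log2 fold change of 2.53 ± 0.108 (adjusted p = 2.96e-17). LINC02593 had 7.08, 5.39 and 6.1 CPM with guide 1, against 0.781, 1.48 and 0.548 CPM with sgCtrl. LINC01133 had 8.01, 8.95 and 8.28 CPM with guide 1, against 3.3, 2.49 and 3.29 CPM with sgCtrl. DIRC3 had 7.39, 7.13 and 6.19 CPM with guide 1, against 20.7, 17.2 and 15.8 CPM with sgCtrl. SBF2-AS1 had 16.3, 18.1 and 15.9 CPM with guide 1, against 30.01, 34.8 and 34.6 CPM with sgCtrl. Apart from PURPL, these were the lower long noncoding RNAs with the smallest p.

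A transcript without a symbol had the largest positive difference between guide 1 and guide 2, and was singled out after its values had been seen. The long noncoding RNA ENSG00000234810, at chr1:55329288-56070513 on the plus strand of the table's GRCh38 coordinates, had 52, 48 and 37 counts with guide 1, 2, 3 and 1 with guide 2, and 0, 0 and 2 with sgCtrl. The ratio of the summed counts of guide 1 over sgCtrl was 69.2 (exact binomial 95% interval 18.8 to 577.5, counting error only). Guide 1 was higher than guide 2 by 4.42 ± 0.433 on the log2 scale (adjusted p = 1.33e-08). Its annotated span overlaps another gene on each strand. The lowest transcript without a symbol, ENSG00000278601 on chromosome 10, had 1, 3 and 2 counts with guide 1, 2, 2 and 4 with guide 2, and 28, 22 and 30 with sgCtrl.

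**Figure D4:**
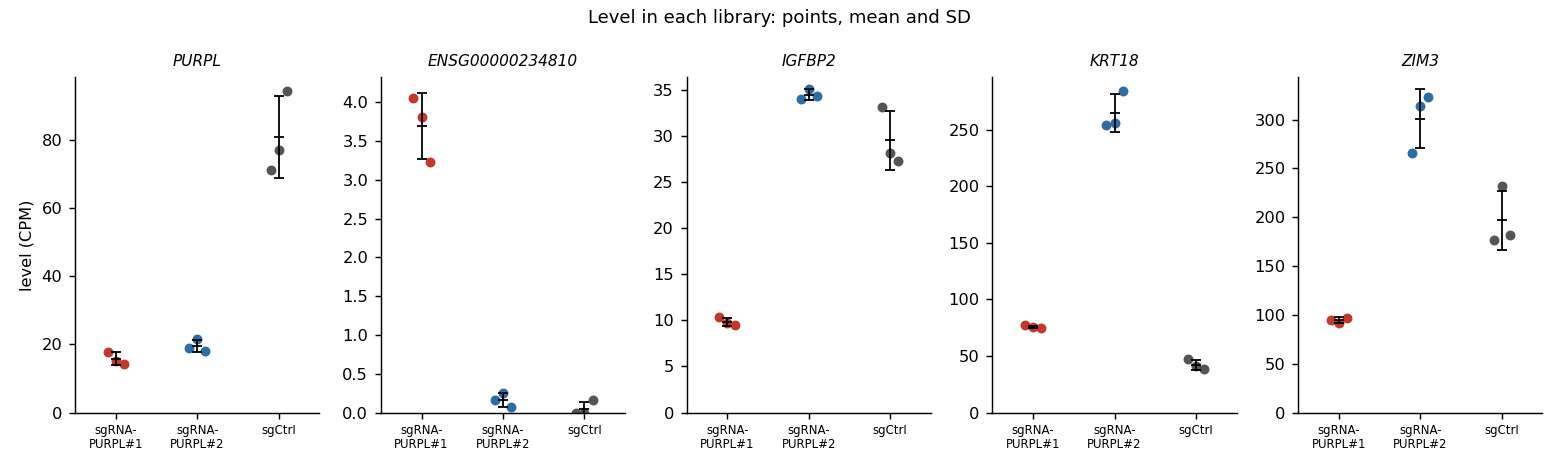
Level of 5 genes in each library (points, CPM, axes from 0) with the mean and SD of each group, in the order sgRNA-PURPL#1, sgRNA-PURPL#2 and sgCtrl. PURPL is low with both guides, ENSG00000234810 is high and IGFBP2 low with guide 1 only, KRT18 is highest with guide 2, and ZIM3 is lowest with guide 1 and highest with guide 2.

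How far the effect of guide 1 was shared with guide 2 was examined gene by gene. Guide 2 called 3393 genes (24.4%), and 2076 genes were called with both guides in the same direction, which is 60.8% of the guide 1 calls and 61.2% of the guide 2 calls. Since both guides were set against the same 3 sgCtrl libraries, part of such sharing comes with the design. The direct test between guides used no sgCtrl library in its means, but these libraries entered the scaling and the shared estimate of the spread. It called 1288 genes (9.25%), 521 higher and 767 lower with guide 1. In a fit without the sgCtrl libraries, 1901 genes differed between the guides. Of the 3417 genes called with guide 1, 796 (23.3%) differed between the guides. In 651 of these the effect was larger with guide 1 and in 145 it was smaller. The genes were picked by their call with guide 1, which favours larger guide 1 effects, so these counts do not rank the guides. Of 1307 genes called with guide 1 and not with guide 2, 401 differed in that test, and for the other 906 a difference between the guides was not shown.

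The genes highest with guide 1 relative to guide 2 included HCLS1 and ADAM23. HCLS1, an actin regulator best known in blood cells, had 10.04, 9.67 and 10.7 CPM with guide 1, 3.88, 2.77 and 3.68 CPM with guide 2, against 3.38, 2.02 and 2.43 CPM with sgCtrl. ADAM23, an adhesion protein of the nervous system, had 4.98, 4.12 and 5.4 CPM with guide 1, 1.82, 1.59 and 1.96 CPM with guide 2, against 0.954, 1.01 and 1.41 CPM with sgCtrl. Neither passed with guide 2, where the log2 fold changes were 0.41 and 0.66. TTC6, SST, KC6, FSIP2, C3orf80, AKR1B10, SLC16A6 and EFS completed the 10, with differences between 1.37 and 2.31. For SST, FSIP2 and AKR1B10 that test was lost without some of the libraries. Among the 10 lowest relative to guide 2 were keratins that rose with both guides. KRT18, a keratin of simple epithelia, had 77.03, 75.2 and 75.1 CPM with guide 1, 254, 256 and 284 CPM with guide 2, against 46.9, 41.2 and 38.4 CPM with sgCtrl. KRT7 had 81.8, 72.6 and 83.1 CPM with guide 1, 311, 297 and 327 CPM with guide 2, against 43.2, 46.1 and 38.99 CPM with sgCtrl. KRT19 fell with both guides and was lowest with guide 1, at 83.3, 79.6 and 87.1 CPM with guide 1, 143, 135 and 150.0 CPM with guide 2, against 257, 219 and 191 CPM with sgCtrl. KISS1, PALMD, NLRP10 and NTM were low with guide 1 and did not pass with guide 2, with differences between -2.45 and -1.88.

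**Figure D5:**
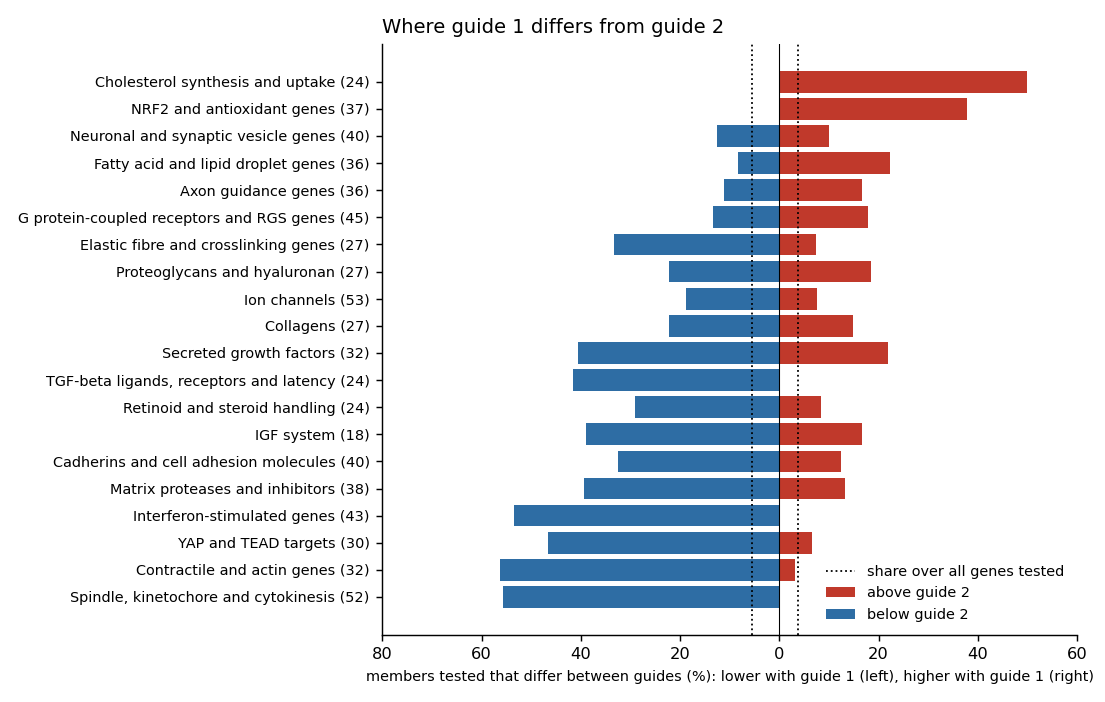
Share of the tested members of each list that were higher (red, right) or lower (blue, left) with guide 1 than with guide 2 at an adjusted p under 0.05 (x axis, percent), for the 20 lists with 9 or more such members. Dotted lines mark 3.74% and 5.51%, the shares over all genes tested. Cholesterol and antioxidant genes lie to the right only, and interferon, TGF-beta and spindle genes to the left only.

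ZIM3 moved in opposite directions with the guides. ZIM3 encodes a zinc finger protein whose KRAB repressor domain is used in some CRISPR interference constructs, and the labels do not say which repressor was used here. It had 95, 92.1 and 97.3 CPM with guide 1, 266, 314 and 323 CPM with guide 2, against 177, 232 and 182 CPM with sgCtrl. The log2 fold change with guide 1 was -1.05 ± 0.0919 (adjusted p = 4.72e-08), and the difference between guide 1 and guide 2 was -1.67 ± 0.092 (adjusted p = 3.14e-10). The raw counts were 1116 to 1221 with guide 1, 3222 to 4121 with guide 2 and 2037 to 2975 with sgCtrl. In the 3 Ctrl libraries of the overexpression experiment, from a separate count table, ZIM3 had 0 counts, which allows at most 0.119 to 0.155 CPM (3 counts of the total). The level of ZIM3 moved with the guide in the same libraries as the results above, and its part in them was not tested.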

How the data were processed

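RNA of 9 BJ samples (3 libraries each of sgRNA-PURPL#1, sgRNA-PURPL#2 and sgCtrl) was sequenced after poly(A) selection, with 18 PCR cycles, per the labels' protocols. The labels call the molecule genomic DNA, which the RNA protocol goes against. Raw counts per gene were deposited by the authors. The submitters' processing notes name FastQC 0.11.9, cutadapt 3.3, HISAT2 2.1.0, SAMtools 1.11, featureCounts 2.0.1 and DESeq2 1.34.0 and the human build GRCh38. In the deposited counts, 0 of 9429 genes that lie inside another gene of the same strand have any count, while 3859 of 11533 genes that lie only inside a gene of the opposite strand do. Same-strand overlap, which 4471 tested genes have, therefore removes reads, and the counting used strand.

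The counts were tested with edgeR 4.0.16 (quasi-likelihood, robust, TMM scaling) in R 4.3.3 over all 9 libraries, with 6 residual degrees of freedom. Genes were kept by filterByExpr (minimum count 10, minimum total 15), and p-values were adjusted over all 13923 genes tested by the method of Benjamini and Hochberg at 0.05. Standard errors were taken as the log2 fold change over the root of F. Levels are CPM on TMM-scaled library sizes, and a fold change of a gene with counts near 0 depends on the prior count of 0.125. Intervals of ratios of counts, and the limit of 3 counts for a gene at 0, cover counting error only, since PCR copies were not marked. The procedure was tested on simulated data.

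Members and gene lists were chosen with earlier results of these data known. Named genes were the 15 highest and 15 lowest fold changes with a symbol, groups that do not overlap and a mean of at least 1 CPM in the higher group, the 10 that gained and 10 that lost most CPM, up to 5 per list and up to 4 per family or gene type by p, the 10 highest and 10 lowest long noncoding RNAs, and the 10 largest differences between guides in each direction. Up to 10 genes that moved in opposite directions with the guides were added. Genes outside this rule are named as such, and a few genes within it are not reported here. Lists carry no test. Promoters and 13 motifs were read from a RefSeq table on GRCh38.p14, for genes with a single start. Alternatives were DESeq2 1.42.0, its size factors, no filter, only 6 libraries, a replicate block, genes without overlap, and leaving out each library. The 6 overexpressing columns of the other count table were not used.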

Additional observations from a re-analysis of the deposited data

Results flagged for a closer look

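Of the 3417 genes that passed with guide 1, 34 passed in the opposite direction with guide 2. Both guides were set against the same sgCtrl libraries, and 9 of the 10 with the largest difference between guides are given. That each passed the test of guide 1 against guide 2 follows from this choice and is no further support. KC6, a long noncoding RNA, had 3.73, 4.6 and 3.66 CPM with guide 1, 0.743, 1.34 and 1.02 CPM with guide 2, against 1.65, 1.79 and 2.11 CPM with sgCtrl, a difference between the guides of 1.94 (log2, adjusted p = 4.77e-06). ZIM3, described above, differed by -1.67. PTPRQ, a phosphatase of hair cells of the inner ear, differed by -1.42, with 10.4, 10.4 and 10.9 CPM with guide 1, 26.2, 30.9 and 27.9 CPM with guide 2, against 17.7, 19.4 and 22.9 CPM with sgCtrl. SLC16A6, a monocarboxylate carrier, differed by 1.39, and DHRS3, which reduces retinal, by -1.39. DHRS3 had 28.2, 27.2 and 29.4 CPM with guide 1, 74.8, 73.9 and 72.9 CPM with guide 2, against 44.2, 48.2 and 36.9 CPM with sgCtrl, and the groups did not overlap. STMN2, a tubulin regulator of neurons, differed by -1.22, DOCK8, an exchange factor for small GTPases, by -1.17, and CRYBG1, a crystallin-domain protein, by 1.11. CAMK1D, a calmodulin-dependent kinase, differed by 1.07. DHRS3, CRYBG1 and CAMK1D overlap a gene on the same strand, and reads in the shared stretches were not counted.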

How the results depend on the processing

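The counts of genes higher, lower and 2-fold changed with guide 1, the count that differed between guides, and the fall of PURPL kept their direction and stayed within 1.5 times their reported value in all alternatives run. Leaving out a library gave 1162 to 1787 higher genes, 1457 to 1884 lower genes and a PURPL log2 fold change of -2.47 to -2.23. DESeq2's test called 1230 higher and 1399 lower genes. Among 347 named genes, 3 turned round without 1 library, none of which had passed: leaving out 1 library gave -0.55 to 0.026 for CSF1R (above 0 without sgCtrl replicate 1), -0.00833 to 0.086 for NOTCH3 (below 0 without sgCtrl replicate 3) and -0.042 to 0.81 for PTPRC (below 0 without guide 1 replicate 3), and the cause was not tested. Of 4072 comparisons of these genes with an alternative, 73 lost the call and 18 gained it. List medians moved by more than the spread between guide 1 libraries in 101 of 611 comparisons, 18 of them without sgCtrl replicate 1 and 20 in the set without overlapping genes. List counts moved by over 1.5 times in 140 of 1224 comparisons with an alternative. Of these, 25 were in the set without overlapping genes, where fewer genes were tested, and the cause of the others was not tested. Same-numbered libraries of different groups did not deviate together (correlations of -0.0888 to 0.0386), so the numbers were not taken as pairs. With the replicate block, 1531 genes were higher, 1719 lower, 228 and 245 by 2-fold or more, 1204 differed between guides, and PURPL was at -2.35. Fewer genes of low level passed. Of 2785 genes at 0.109 to 3.09 CPM, 6.86% were higher and 5.75% lower, against 19.1% and 16.8% of 2785 genes above 75.3 CPM. The same low genes held 141 of the 229 higher and 115 of the 252 lower genes that changed by 2-fold or more. The part of depth in this was not tested.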
